A study of Mus musculus with 150 samples.

Results

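Cells of the lung tumour T9 were divided by the copy number level of their chromosome 19, and the remaining chromosomes were then compared between the resulting sets. The low set held the 33 cells whose chromosome 19 level was -0.12 or less, and the rest held the other 17 cells, so that all 50 T9 cells were used. The series holds 150 single-cell DNA libraries from 3 tumours, T1, T7 and T9, of 1 mouse, with 50 cells from each. The level of a chromosome in a cell is the median log2 ratio of its bins after subtraction of that cell's median over all autosomal bins. Zero is therefore the typical autosomal level of that cell, and a change of the whole genome in the number of its chromosome copies is not visible.

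All cells compared here share 1 genotype, 1 tumour and 1 time point. The mouse belonged to the group labelled KP, on a mixed C57BL/6 x Sv129 background. The alleles listed for these animals include Trp53flox/flox, Rosa26LSL-tdTomato and Rosa26LSL-Luciferase. Tumours were induced with the adenovirus AdSPC-Cre, whose promoter is active in surfactant-producing cells, or with AdCMV-FlpO, and the labels do not say which was given to this mouse. The tumours were collected at 30 weeks and large ones were microdissected. The label calls the cells AT2 cells of lung tissue, the alveolar cells that make surfactant, which DNA copy number cannot check against markers. Because every cell comes from the same tumour, the cells are not replicates of a condition, no test was made, and every SD below is the spread over cells.

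A chromosome that missegregates in mitosis leaves one daughter cell with an extra copy and the other with a missing one, and all descendants inherit the change. Cells of a tumour that share a copy number change are therefore usually read as related, while the same change can also arise more than once. Loss or gain of a whole chromosome shifts the dosage of all its genes together, and a change of part of a chromosome needs a break in the DNA.

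In the median over cells the low set carried less of the whole of chromosome 19, but only 3 of 33 cells reached the loss call given below. The other 30 of 33 lay between that loss call and -0.12 on chromosome 19. The remaining autosomes lay at nearly the same median level in both sets. Chromosome 10, however, was at -0.12 or less in 14 of 33 low-set cells and in 2 of 17 other cells. Apart from the chromosome that defined the sets, the start of X stood out: in the deposited ratio it lay above the remainder of X in most low-set cells, and it was above, level with or below it in the rest. Chromosome 4 lay between the loss call and -0.12 in 29 of 33 low-set cells and in 7 of 17 other cells, and the remaining 10 of the rest were 3 losses and 7 cells above -0.12, 1 of them a gain.

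The chromosome 19 levels chose the members, so they are given as a description. In the low set the level ran between -0.52 and -0.14 with a median of -0.25 (SD 0.10, n = 33 cells). In the rest it ran between -0.03 and 0.58 with a median of 0.03 (SD 0.15, n = 17 cells). These medians correspond to 84.4% of the cell's typical autosomal level in the low set and 102% in the rest. Of all T9 cells, 66% were in the low set, with an exact Clopper-Pearson 95% interval of 51.2% to 78.8% that covers counting error only.

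**Figure D1:**
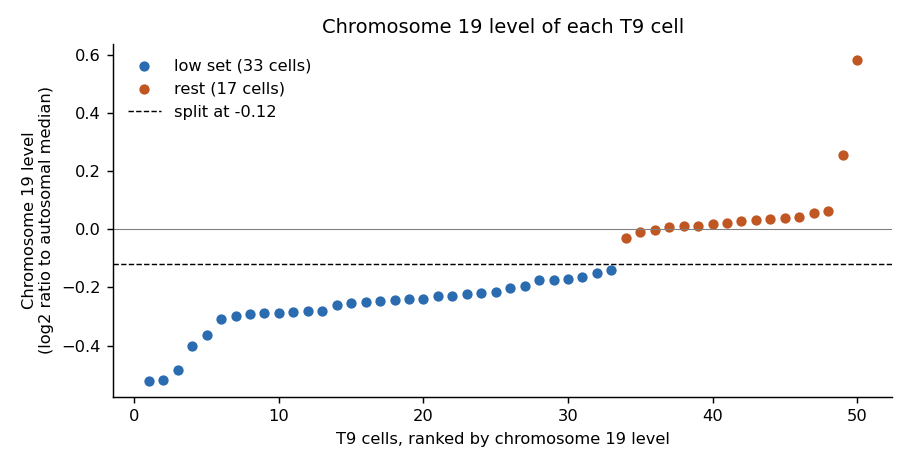
Chromosome 19 level (log2 ratio to the cell's autosomal median) of each T9 cell, ranked, with the 33 low-set cells in blue, the 17 other cells in orange and the dividing level of -0.12 dashed. The low set ends at -0.14, the rest starts at -0.03, and no cell lies between.

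No cell lay in the interval of 0.11 between the highest low-set cell and the lowest of the rest, and 2 low-set cells were within 0.03 of the dividing level. Just inside it were the cells numbered 180101, 180124 and 180138, at -0.14, -0.15 and -0.16. Just outside it were 180111, 180105 and 180108, at -0.03, -0.01 and -0.002. The low set was itself uneven: 28 cells lay between -0.35 and -0.12 and 5 at -0.35 or less, with 180114, 180127 and 180103 the lowest at -0.52, -0.52 and -0.49. In the rest, 15 of 17 cells were within 0.1 of 0, and 180109 at 0.58 and 180140 at 0.25 stood above them, followed by 180131 at 0.06.

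Levels spread over the T9 cells by more than the bin-to-bin noise would give on every chromosome, with an SD of 0.20 against 0.02 on chromosome 19, 0.18 against 0.01 on chromosome 18 and 0.17 against 0.01 on chromosome 4. Sequencing depth was similar, with 56.4 Mb of sequence in bins per cell in the low set (43.3 to 82.1) and 60.1 Mb in the rest (46.5 to 79.0). Bin noise was also similar, with a median of 0.134 in the low set and 0.130 in the rest. In T1, 23 of 47 kept cells were also at -0.12 or less on chromosome 19, and in T7 1 of 48.

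In the median over low-set cells, chromosome 19 was low over its whole measured length, chr19:3000001-61331566 of GRCm38. That length spans 58.3 Mb and 116 bins and holds 705 protein-coding genes in the RefSeq annotation. All 116 bins were lower in the low set by 0.11 to 0.46, and neither set's median profile had a break on the chromosome. A break here is a step of at least 0.15 between segments of at least 10 Mb, so shorter changes are not counted. In windows of about 10 Mb the median over cells in the low set lay between -0.30 and -0.18, and in the rest between 0.02 and 0.08. The shift between the sets was thus of similar size in each of the 6 windows, where it ran from -0.32 to -0.26. Single cells varied: the first window was at -0.12 or less in 25 of 33 low-set cells. Divided at its middle, the chromosome was at -0.12 or less on both sides in 31 of 33 low-set cells. The low-set cell 180138 was at -0.01 on the side of the start and -0.29 on the side of the end. With log2 of the deposited depth in place of the deposited ratio, the difference between the sets was -0.30, and the offset that separates the ratio from depth differed by 0.002 between the sets.

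**Figure D2:**
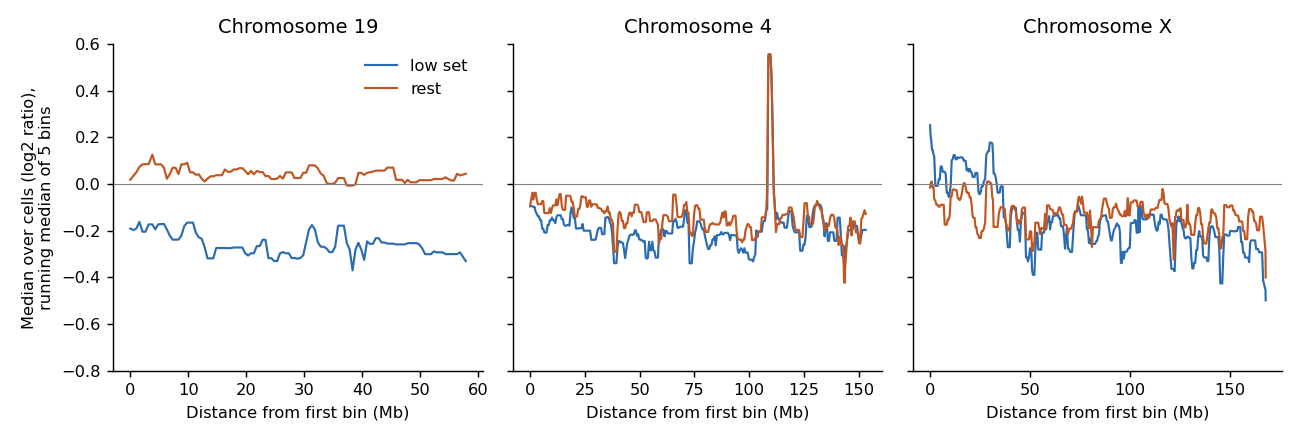
Median over cells of each bin (log2 ratio, running median of 5 bins) along chromosomes 19, 4 and X, against the distance from the first bin in Mb, for the low set in blue and the rest in orange. Chromosome 19 is shifted along its whole length, and chromosome 4 lies low in both sets with a local peak. On X the low set starts above the rest and runs mostly somewhat below it after the first 36.8 Mb.

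Each gene was read from a window of 5 bins around it, so genes that share a window share their values, as Rela and Malat1 do. All 20 listed genes of chromosome 19 were lower in the low set by 0.23 to 0.36, as they must be where the members were chosen by this chromosome, and the values only show the dosage. Over windows of 5 bins around all autosomal bins outside chromosome 19, 3.8% were lower by 0.10 or more. Jak2, a cytokine receptor kinase gene, was at -0.32 in the low set and 0.04 in the rest. Its neighbour Cd274, which encodes the immune checkpoint ligand PD-L1, was at -0.30 in the low set and 0.03 in the rest. Tcf7l2, a transcription factor gene of the Wnt pathway, was at -0.32 in the low set and 0.02 in the rest. The genes near the start of the chromosome lay higher in both sets, with Men1, a tumour suppressor gene, at -0.17 in the low set and 0.10 in the rest, and Rela, which encodes an NF-kB subunit, at -0.19 in the low set and 0.10 in the rest.

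Outside chromosome 19, no autosome differed by 0.10 or more between the medians of the sets, 0 of 18 or 0% of them. The differences, low set minus the rest, ran between -0.07 for chromosome 4 and 0.04 for chromosome 18. Of the 4690 single autosomal bins outside chromosome 19, 15.2% differed by 0.10 or more, with 6.67% lower and 8.55% higher in the low set. Of the 24 regions into which the T9 median profile divides outside chromosome 19, 1 differed by that much, which is 4.17%, and it was the start of X. The limits used to join neighbouring segments into regions were chosen after values were seen.

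**Figure D3:**
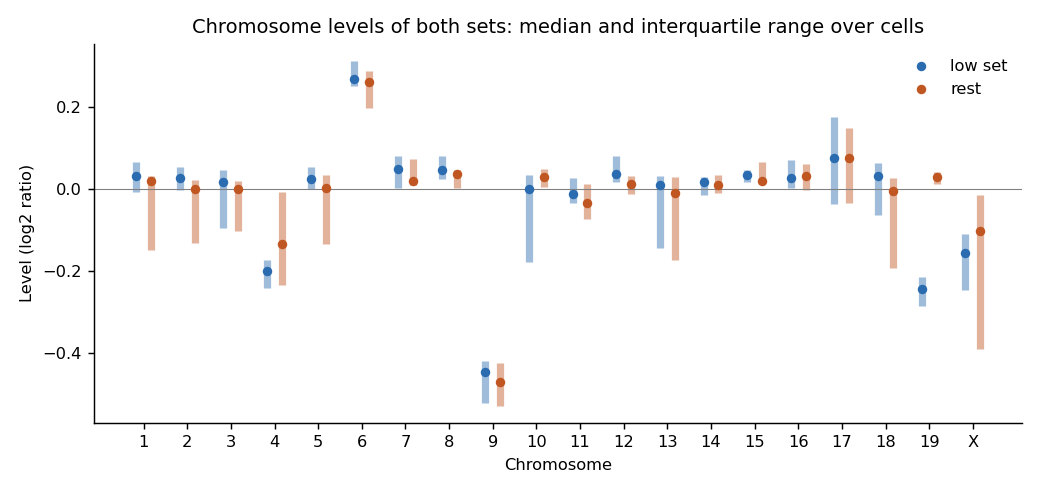
Level of every chromosome (log2 ratio), with the median over cells as a point and the interquartile range as a bar, for the low set in blue at the left and the rest in orange at the right. The medians of chromosomes 1 to 18 lie within 0.07 of each other, while chromosome 19 separates, and the orange bars are long on chromosomes 4 and X.

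The start of X, chrX:3050001-39826795, spans 36.8 Mb and holds 266 protein-coding genes. Its level was 0.07 (SD 0.22, n = 33 cells) in the low set and -0.07 (SD 0.31, n = 17 cells) in the rest. The remainder of X was at -0.19 (SD 0.15) in the low set and -0.14 (SD 0.24) in the rest. The start was thus 0.14 higher in the low set and the remainder 0.04 lower, and each of these differences was smaller than either SD. The difference of the start was under 0.10 in 4 alternatives, at 0.07 and 0.08 with dividing levels of -0.15 and -0.20 on chromosome 19, 0.08 with centring on the mode and 0.08 without the noisier cells. Levels of X below 0 belong to the deposited ratio: from depth the whole of X was at 0.03 in the low set and 0.05 in the rest, and the offset between ratio and depth was -0.17 in the low set and -0.15 in the rest. On the autosomes that offset was at most 0.05 in size, and the labels do not give the sex of the mouse, which bears on the level of X. The median profile of the low set had a break at the end of the start region, with segments at 0.06 and -0.21, and the profile of the rest ran without a break at -0.13.

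The step within X, the level of the start minus that of the remainder in the same cell, removes anything that shifts the whole of X. It ran between -0.09 and 0.61 with a median of 0.26 in the low set, and between -0.35 and 0.29 with a median of 0.01 in the rest. The ranges overlapped, but the middle of the low set was tight, with quartiles at 0.22 and 0.28, against -0.04 and 0.12 in the rest. Of the 17 other cells, 8 were within 0.12 of 0 and 4 were at -0.12 or less. A step of 0.12 or more was present in 27 of 33 low-set cells (81.8%, interval 64.5% to 93.0%) and in 5 of 17 other cells (29.4%, interval 10.3% to 56.0%). The limit of 0.12 was set after the values were seen, and the cell 180111, at 0.12, lay next to it.

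The same step was measured in the other tumours. In T1 the median step was -0.08, and 0.12 or more was reached in 0 of 47 cells (at most 6.38% for a count of 0). In T7 it was so in 2 of 48 cells, with a median of 0.003. Taken from the deposited depth, the step was 0.52 in the low set and 0.26 in the rest, which is higher than from the ratio in both sets. At that scale 33 of 33 low-set cells and 15 of 17 other cells were at 0.12 or more. With this limit, chosen on the ratio, the contrast in the share of cells was seen in the deposited ratio alone. The quartiles from depth were 0.49 and 0.56 in the low set, and 0.20 and 0.40 in the rest. The difference between the sets was 0.26 from depth and 0.25 from the ratio. Of the 3 cells lowest on chromosome 19, 180114 and 180127 had steps of -0.02 and 0.03, and 180103 had 0.32. Over all T9 cells the step from the ratio and the chromosome 19 level had a Pearson r of -0.35 and a Spearman rho of -0.33 (n = 50). Within the low set alone the values were 0.35 and 0.19 (n = 33).

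Genes of X were added to the lists after their values were seen and illustrate the step. Kdm6a, which encodes a histone demethylase, lies in the start region and was at 0.11 in the low set and -0.04 in the rest. Ddx3x, an RNA helicase gene of the same region, was at -0.01 in the low set and -0.17 in the rest. Beyond the break, Stag2, which encodes a subunit of cohesin, was at -0.23 in the low set and -0.20 in the rest.

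Chromosome 4 had the most negative difference of medians outside chromosome 19, while by means over cells chromosome 10 was lower, at -0.08 against -0.07. Its level ran between -0.39 and 0.12 with a median of -0.20 (SD 0.08) in the low set, and between -0.54 and 0.58 with a median of -0.13 (SD 0.27) in the rest. The difference of the medians, -0.07, was smaller than either SD, while the spread in the rest was the larger. Without the cell 180116, which had the highest level and was singled out after its values were seen, the SD in the rest was 0.21.

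At -0.12 or less on chromosome 4 were 29 of 33 low-set cells (87.9%, interval 71.8% to 96.6%) and 10 of 17 other cells (58.8%, interval 32.9% to 81.6%). All 29 of the low-set cells lay above the loss call, log2(1.5/2) or -0.42, which marks 1.5 copies where 2 are typical. Of the 10 other cells, 3 were at or below that call and 7 lay above it. A loss was called in 0 of 33 cells of the low set (at most 9.09% for a count of 0). The scatter of chromosome 4 in the rest included 7 of 17 cells above -0.12, against 4 of 33 in the low set, and 1 gain, in 180116.

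**Figure D4:**
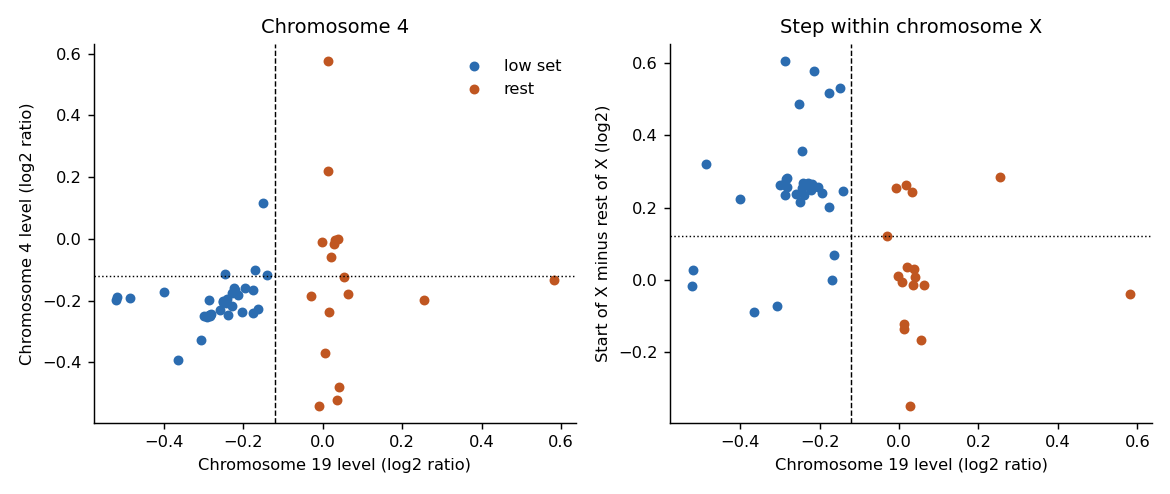
Chromosome 4 level (left) and the step within X (right), both log2, against the chromosome 19 level of each T9 cell, for the low set in blue and the rest in orange, with dashed lines at -0.12 on chromosome 19 and dotted lines at -0.12 for chromosome 4 and 0.12 for the step. Blue points gather near -0.20 on chromosome 4 and near 0.26 in the step, while orange points spread from -0.54 to 0.58 on chromosome 4.

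Of the 311 bins of chromosome 4, 28.9% were lower in the low set by 0.10 or more, against the 6.67% of all autosomal bins outside chromosome 19, and these bins share the same cells. Neither set's profile had a break on chromosome 4. A short peak of 4 bins, chr4:111821644-113812544, stood at 0.55 in the low set and 0.58 in the rest, so it did not separate the sets. It was at 0.56 in T7 and at -0.03 in T1, where chromosome 4 as a whole was at -0.04 and -0.69. The peak thus stood above its chromosome in all 3 tumours.

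Across cells within a set, the chromosome 4 level and the chromosome 19 level had a Pearson r of 0.33 and a Spearman rho of 0.49 in the low set (n = 33), and -0.03 and -0.03 in the rest (n = 17). The chromosomes of a cell share its library, depth and centring. In T1 the values were 0.39 and 0.46 (n = 47), and in T7 they were -0.21 and -0.04 (n = 48).

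Of the 16 listed genes of chromosome 4, 2 were lower in the low set by 0.10 or more, Pax5 and Tgfbr1, and the median difference over the list was -0.03. Of all windows of 5 bins on chromosome 4, 21.9% were lower by that much, against the 3.8% of all autosomal windows outside chromosome 19. Pax5, a B cell transcription factor gene, was at -0.26 in the low set and -0.11 in the rest. Tgfbr1, a TGF-beta receptor gene, was at -0.31 in the low set and -0.19 in the rest. Cdkn2a, which encodes cell cycle inhibitors and shares its window with Cdkn2b and Mtap, was at -0.24 in the low set and -0.21 in the rest. Its window was called lost in 1 of 33 low-set cells and 4 of 17 other cells. Arid1a, a chromatin remodeller gene, was at -0.05 in the low set and -0.07 in the rest.

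Chromosome 10 differed little in its median, 0.00 in the low set and 0.03 in the rest, but its distribution differed. Its level ran between -0.24 and 0.14 in the low set and between -0.24 and 0.27 in the rest. At -0.12 or less were 14 of 33 low-set cells (42.4%, interval 25.5% to 60.8%) and 2 of 17 other cells (11.8%, interval 1.46% to 36.4%). Of its 255 bins, 42.7% were lower in the low set by 0.10 or more, against the 6.67% of all autosomal bins outside chromosome 19. Chromosome 10 was singled out after its values were seen.

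On other autosomes the shares ran in either direction. They were higher in the low set on chromosomes 3, 4, 7, 8, 9, 12 and 15. They were lower in the low set on chromosomes 1, 2, 5, 11, 13, 14, 16, 17 and 18, and chromosome 6 had no such cell. Of these, the values of chromosomes 2, 1 and 5 are given. At -0.12 or less on chromosome 2 were 2 of 33 low-set cells and 5 of 17 other cells. On chromosome 1 these were 5 of 33 low-set cells and 6 of 17 other cells, and on chromosome 5 they were 4 of 33 low-set cells and 5 of 17 other cells. The SD over cells was larger in the rest on 14 of the 18 autosomes, and on 11 of 18 without 180116, which was called gained or lost on 7 autosomes. The interquartile width was larger in the rest on 10 of 18.

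The sets shared the changes found across T9, not all of which were particular to this tumour. The start of chromosome 9, chr9:3491634-46754665, was gained in 32 of 33 low-set cells, at 0.46 (SD 0.09), and in 13 of 17 other cells, also at 0.46 (SD 0.22). The remainder of chromosome 9 was lost in 33 of 33 low-set cells, at -0.59, and in 14 of 17 other cells, at -0.63. The end of chromosome 6, chr6:69719313-149586546, was gained in 30 of 33 low-set cells, at 0.43, and in 11 of 17 other cells, at 0.40. The median levels of these regions differed between the sets by under 0.04, and the share of cells past the call was lower in the rest for each.

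The end of chromosome 11, chr11:99034872-121982543, was lost in 29 of 33 low-set cells, at -0.54, and in 12 of 17 other cells, at -0.54. The end of chromosome 17, chr17:59285304-94887271, was gained in 13 of 33 low-set cells, at 0.31, and in 9 of 17 other cells, at 0.35. Its median lay close to the gain call, log2(2.5/2) or 0.32, in both sets, and 33 of 33 low-set cells and 16 of 17 other cells were at 0.12 or more. The share past the call was thus higher in the rest on chromosome 17.

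**Figure D5:**
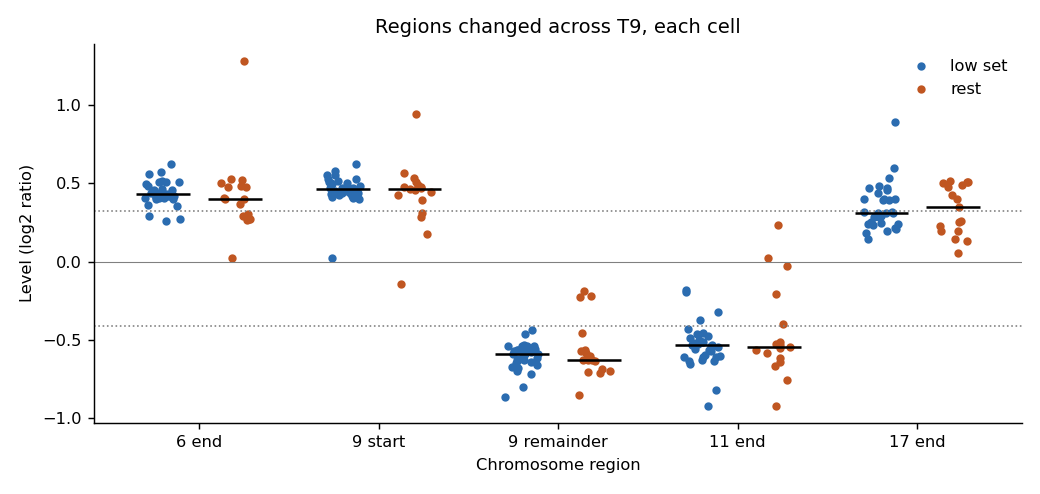
Level of 5 regions changed across T9 (log2 ratio) in each cell, with the low set in blue at the left and the rest in orange at the right of each region, horizontal bars at the medians and dotted lines at the gain call of 0.32 and the loss call of -0.42. The medians of both sets lie within 0.04 of each other. Points of either colour between the dotted lines are cells in which no gain or loss is called, some near 0 and some at intermediate levels.

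The changes on chromosomes 6, 9 and 11, 4 in all, were called together in 25 of 33 low-set cells (75.8%, interval 57.7% to 88.9%) and in 9 of 17 other cells (52.9%, interval 27.8% to 77.0%). Exactly 3 of them were called in 8 of 33 low-set cells and 4 of 17 other cells. None or 1 of them was called in 0 of 33 cells of the low set (at most 9.09% for a count of 0) and in 4 of 17 other cells. The rest therefore held cells with all or most of these changes called and 4 cells with at most 1 called. Among the latter were 180111 with 0 and 180109 with 1. A change that was not called need not be absent. The cell 180137, with 0 called, was at 0.27 on the end of 6 and 0.28 on the start of 9. It was at -0.22 on the remainder of 9 and -0.20 on the end of 11. The cell 180109 differed in direction, at -0.14 on the start of 9 and 0.23 on the end of 11.

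The listed genes of these regions were at like levels in both sets, with 0 of 19 differing by 0.10 or more, against 5.67% of all autosomal windows of 5 bins outside chromosome 19. Yap1, a Hippo pathway coactivator gene on the gained start of chromosome 9, was at 0.59 in the low set and 0.57 in the rest. Atm, a DNA damage kinase gene on the lost remainder, was at -0.55 in the low set and -0.52 in the rest. Sox9, a transcription factor gene of lung development on the lost end of chromosome 11, was at -0.70 in the low set and -0.64 in the rest. Trp53, on the unchanged part of chromosome 11, was at 0.02 in the low set and 0.06 in the rest, where a floxed gene's deletion is far shorter than a bin and cannot be seen.

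The joint counts of chromosome 4 and the X step differed between the sets, as the separate shares of each already did. Both a chromosome 4 level of -0.12 or less and an X step of 0.12 or more in the ratio were present in 24 of 33 low-set cells (72.7%, interval 54.5% to 86.7%) and in 4 of 17 other cells (23.5%, interval 6.81% to 49.9%). Neither was present in 1 of 33 low-set cells and in 6 of 17 other cells.

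Similarity of whole profiles over the 18 other autosomes was also described. The cell with the highest correlation was in the same set for 27 of 33 low-set cells, whose other cells are 65.3% low-set, and for 7 of 17 other cells, whose other cells are 32.7% from the rest. The median correlation was 0.66 among low-set cells (528 pairs), 0.44 among the other cells (136 pairs) and 0.56 between the sets (561 pairs). Low-set cells were thus the more alike, and pairs of cells share the tumour's common changes.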

How the data were processed

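The submitters' processing notes name BWA 0.7.17 and the build GRCm38. The deposited depth table gives a coverage signal per bin and cell. The deposited log2 ratio table gives log2 values per bin and cell for which no tool or normal sample is stated in the labels. The deposited weight score of each bin served as an alternative only. Bins on autosomes and X with data in 80% of cells were kept. Cells with a noise above the median plus 3 scaled median absolute deviations or data in under 80% of bins were left out, which removed 0 T9 cells. Profiles were segmented with a penalised least-squares search, checked on simulated data. The members, lists and thresholds were chosen with earlier results of these data known, and named genes are those of fixed lists, with genes of X added later. No doublet caller was run, and the labels state no removal of doublets. Gene positions come from RefSeq (GRCm38.p6). Python 3.11.15, numpy 2.4.6, pandas 2.3.3 and scipy 1.17.1 were used. The alleles of the animals are listed in part; 1 is not reported here.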

Additional observations from a re-analysis of the deposited data

How the results depend on the processing

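Of 771 values recomputed under alternatives, 751 were labelled as kept and 20 as moved. A difference was kept if it changed by less than its SD over cells, pooled over both sets. A share was kept inside the counting interval of its main value, and a count within a fixed ratio. That SD exceeds most of the differences, so the label says little about how stable they are. The difference of chromosome 5, for example, ran between -0.01 and 0.11. No difference that was 0.10 or more in the main setting changed sign. Smaller differences of most autosomes lay on either side of 0. The low set held up to 34 cells under other dividing levels, centrings, bins and weights. It was smaller with dividing levels of -0.15 and -0.20. It held 15 cells when those with noise above the T9 median were left out, where the start of chromosome 9 was gained in 100% of it. The number of other autosomes past a difference of 0.10 was 1 with means over cells (chromosome 5, at 0.11) and 1 with a limit of 0.05. With a chromosome 4 limit of -0.20, the share at or below it was 51.5% in the low set and 29.4% in the rest, and the share between it and the loss call was 51.5% in the low set and 11.8% in the rest. Looser calls gave a gain of the end of chromosome 6 in 100% of the low set and 94.1% of the rest, and of the end of chromosome 17 in 72.7% of the low set. Stricter calls gave, in the low set, gains in 36.4% (end of 6), 60.6% (start of 9) and 21.2% (end of 17). Stricter calls also gave losses of the remainder of 9 in 9.09% of the low set and 17.6% of the rest, and of the end of 11 in 6.06% of the low set and 11.8% of the rest. From the deposited depth an X step of 0.12 or more was present in 100% of the low set and 88.2% of the rest. The causes were not tested, beyond the altered limits themselves. The difference of the X step ranged between 0.23 and 0.26, that of the start of X between 0.07 and 0.22, that of the remainder between -0.12 and -0.02, and that of chromosome 4 between -0.08 and -0.02. The analyses of X, and those without 180116 or the cells most extreme on chromosome 19, were added after seeing the data. No paired analysis was possible because cells carry no replicate numbers shared between the sets and no test was made.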
